A study of Mus musculus with 18 samples.

Results

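Six3, Six3os1 and Otx2 are 3 of 56589 gene names in the RNA-seq data of newborn (postnatal day 0) mouse brain described here. They were chosen by their difference between conditional knockout (cKO) and control in hippocampal neurospheres of Kdm2b mutant mice, where they held ranks 1 to 3 of 12227 genes. The neurosphere values are therefore given as a description with no test, and the question asked is whether tissue of the same genotype, or hippocampus of a Rnf2 mutant, shows the same. Each name has a single entry in each of the 4 deposited tables.

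SIX3 is a homeodomain transcription factor of the anterior neural plate. It is needed for the rostral forebrain and the eye, represses Wnt genes at the front of the embryo, and later serves in striatal neurons that carry the dopamine D2 receptor. Six3os1 is a long non-coding RNA transcribed from the opposite strand next to Six3. OTX2 is a homeodomain factor of the fore- and midbrain that persists in retina, in the choroid plexus, which makes cerebrospinal fluid, and in parts of the thalamus and midbrain, and it is low in hippocampus and neocortex. KDM2B carries a CxxC zinc finger that binds unmethylated CpG sites and brings a variant Polycomb repressive complex 1 to CpG islands. RNF2 (RING1B) is the ubiquitin ligase of that complex and of other Polycomb repressive complexes 1.

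There were 18 libraries in 8 groups, all from mice of postnatal day 0. Hippocampus was measured in 3 control (Kdm2bfl/+ or Kdm2bfl/fl) and 3 cKO (Kdm2bEmx1-delta-CxxC) libraries. Neurospheres, free-floating cultures of neural progenitors grown from hippocampus with FGF2 and EGF and passaged before RNA was taken, were measured in 2 control and 2 cKO libraries of the same genotypes, and cortex likewise in 2 and 2. A second mutant was measured in hippocampus only, with 2 control (Rnf2fl/+ or Rnf2fl/fl) and 2 cKO (Rnf2Emx1-cKO) libraries. The controls thus carried floxed alleles too, heterozygous or homozygous. The Kdm2b allele loses the exon of the CxxC finger and leaves the rest of the gene in place. Emx1-Cre acts in the dorsal telencephalon lineage, so interneurons from the ventral telencephalon, vessels and microglia keep an intact allele. The labels do not say how many animals a library held, so p-values measure the spread between libraries only. In bulk RNA, more cells of a type and more RNA per cell cannot be told apart.

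Values are FPKM, fragments per kilobase of gene, scaled to the mapped reads of the library, as deposited. Differences are cKO minus control on the scale log2(FPKM + 1), which understates the change of genes near 0. A gene was tested where its mean was at least 0.5 FPKM, and called where the difference exceeded 0.4 in size at an unadjusted p under 0.05 in limma, the thresholds of the study. The 4 tables were normalised separately, so no test crosses them.

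Several libraries need a remark before the results. Kdm2b itself, counted over the whole gene, stood at 26.2 to 28.2 FPKM in cKO and 28.1 to 31.9 in control hippocampi, so it does not report the loss of the CxxC exon. Rnf2 stood at 27.8 to 28.5 FPKM in Rnf2 cKO and 30.8 to 32.3 in their controls. Emx1, the marker of the Cre-expressing lineage, was at 37.3 to 45.0 FPKM in hippocampi of the Kdm2b series, but at 0.175 and 0 FPKM in the control neurospheres and 1.16 and 1.84 FPKM in the cKO neurospheres. Prox1, of the dentate gyrus, was at 11.5 to 12.8 FPKM in the 4 neurosphere libraries. Neurosphere cKO library 1 was high in genes of the intestinal lining, for a reason that is not known. Of 16 such genes, a list chosen after the values were seen, 14 were highest in that library. Without Lgals4, whose entry is shared with Ech1 and Lgals6 and was at 29.0 to 46.2 FPKM in all 4 libraries, their sum was 231.9 FPKM there, against 8.32 in cKO library 2 and 0.0825 and 5.20 in the controls. Entries with no gene name took 29.3% of the FPKM of neurosphere control 1 and at most 1.95% in the other 3 neurosphere libraries.

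Six3 lies on chromosome 17 of GRCm38 (chr17:85613608-85629302, plus strand, ENSMUSG00000038805, protein coding). Six3os1 lies beside it on the minus strand (chr17:85600651-85618398, ENSMUSG00000093460, a processed transcript), and their gene bodies share 4791 bases. Otx2 lies on chromosome 14 (chr14:48657677-48673819, minus strand, ENSMUSG00000021848, protein coding) and shares 5112 bases with the long intergenic non-coding RNA gene Otx2os1 on the plus strand. Whether the counting used strand is not given in the sources used here, so reads in a shared stretch may belong to either gene of a pair.

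The sequences before the start sites are shown because the CxxC finger deleted in the Kdm2b mutant binds CpG. The RefSeq sequence of the 250 bases upstream of a start (GRCm38.p6) is given 5′ to 3′ on the strand of the gene, with each CpG in capitals. For Six3 it is chr17:85620584-85620833 on the plus strand, and for Six3os1 chr17:85618397-85618646 on the minus strand, which reaches into an annotated exon of Six3os1. For Otx2 it is chr14:48667645-48667894 on the minus strand, before the most upstream of its RefSeq starts.
Six3: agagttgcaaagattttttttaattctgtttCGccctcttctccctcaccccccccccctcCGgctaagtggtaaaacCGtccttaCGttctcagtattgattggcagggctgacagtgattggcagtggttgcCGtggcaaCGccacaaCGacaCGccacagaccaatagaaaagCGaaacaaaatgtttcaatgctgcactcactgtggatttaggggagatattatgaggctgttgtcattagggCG
Six3os1: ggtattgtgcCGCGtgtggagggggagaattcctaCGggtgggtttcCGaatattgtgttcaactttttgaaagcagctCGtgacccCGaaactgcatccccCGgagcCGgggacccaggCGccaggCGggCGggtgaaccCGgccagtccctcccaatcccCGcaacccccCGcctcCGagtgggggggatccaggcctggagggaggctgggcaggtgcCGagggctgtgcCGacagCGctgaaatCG
Otx2: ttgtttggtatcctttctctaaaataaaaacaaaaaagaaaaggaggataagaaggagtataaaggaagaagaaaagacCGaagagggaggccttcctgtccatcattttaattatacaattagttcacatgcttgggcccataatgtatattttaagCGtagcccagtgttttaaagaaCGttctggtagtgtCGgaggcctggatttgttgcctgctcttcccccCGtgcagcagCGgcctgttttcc

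The Six3 window held 10 CpG (the letters CG, the same on both strands), and 37.8% of 32841 RefSeq windows of the same length held at least as many. The Six3os1 window held 19 CpG, a number reached by 19.7% of windows. By RefSeq, the Six3os1 start (85618396) lay 2438 bases from the Six3 start (85620834), and the genes run away from each other. The gene bodies given above are of another annotation, where Six3 starts at 85613608. The printed windows of Six3 and Otx2 lie inside those gene bodies. The printed Otx2 window held 6 CpG, the median over all windows, and those before the other 3 Otx2 starts held 8, 14 and 9. The ratio of observed to expected CpG was 0.67 for Six3, 0.70 for Six3os1 and 0.55 for the printed Otx2 window. Of all windows, 28.8%, 26.5% and 37.2% had ratios as high. The Otx2 window with 14 CpG had 1.03, reached by 4.33% of windows, and those with 8 and 9 CpG had 0.53 and 0.55. These counts and ratios describe letters and measure neither methylation nor KDM2B binding. They cover only the 250 bases before a start and not the sequence after it. Whether a CpG island lies at these promoters was therefore not determined.

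In neurospheres, Six3 stood at 0.308 and 0.0175 FPKM in the 2 control libraries and at 16.7 and 23.5 FPKM in the 2 cKO libraries. Six3os1 stood at 0.771 and 0.0523 FPKM in controls and at 20.2 and 23.0 FPKM in cKO libraries. Otx2 stood at 0.0830 and 0 FPKM in controls and at 6.54 and 12.8 FPKM in cKO libraries. All 3 genes went from near 0 to a clear level in both cKO libraries, and the groups did not overlap, as for 32.1% of the genes tested with both cKO libraries above both controls. The choice of the genes favours this. The differences on the log2(FPKM + 1) scale were 4.17 for Six3, 4.05 for Six3os1 and 3.29 for Otx2. All 3 exceeded the thresholds by construction, where 11.4% of the 12227 genes tested were called higher. Control library 1 was the higher control for each of the 3 genes, and it was also the library with many unnamed entries.

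**Figure D1:**
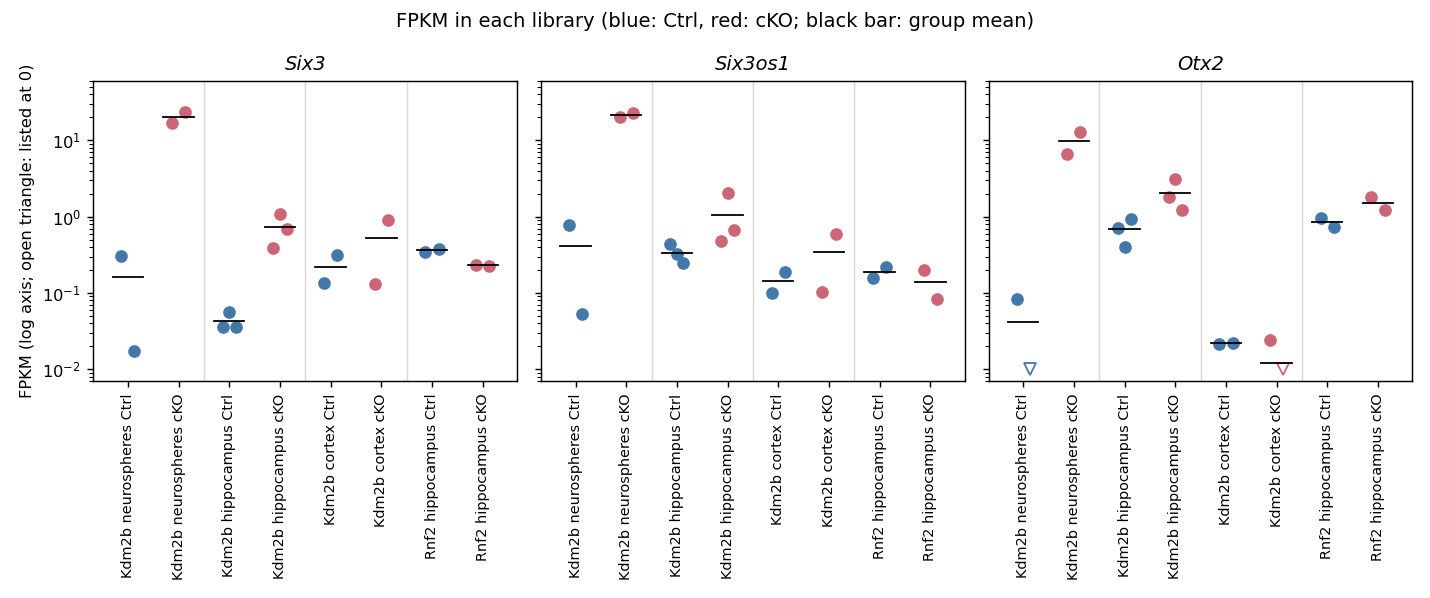
FPKM (vertical log axis) of Six3, Six3os1 and Otx2 in each of the 18 libraries, with a point per library, a bar at each group mean and open triangles for values listed at 0. The cKO neurosphere libraries sit at 6.54 FPKM or more for all 3 genes, and no tissue library exceeds 3.14 FPKM.

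The next 3 genes by the same measure were Mptx1 (3.16), Car1 (3.08) and Spink4 (3.08), just outside the choice. They had another pattern. Mptx1, a pentraxin of the gut, was at 67.1 FPKM in cKO library 1 and 4.31 in cKO library 2, against 0 and 3.54 in controls. Car1, a carbonic anhydrase, was at 62.8 and 0.183 FPKM in the cKO libraries and at most 0.0599 in controls. Spink4, of goblet cells, was at 32.4 and 1.85 FPKM in the cKO libraries and at most 0.337 in controls. These genes were highest in cKO library 1, whereas Six3, Six3os1 and Otx2 were higher in cKO library 2. The intestinal list was chosen after such values were seen and is no separate evidence on that library. Without cKO library 1 the differences of Six3, Six3os1 and Otx2 were 4.41, 4.14 and 3.73.

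In hippocampus of the same genotype the 3 genes lay far lower than in cKO neurospheres, and each was higher in every cKO library than in every control. Otx2 had the highest level. It stood at 0.714, 0.404 and 0.943 FPKM in controls and 1.81, 3.14 and 1.23 FPKM in cKO libraries, or 0.687 ± 0.270 against 2.06 ± 0.979 (SD, n = 3 each). The lowest cKO library was close to the highest control. The fitted difference was 0.82 (SE 0.22) and was called higher, at a limma p of 0.00433 and a Benjamini-Hochberg adjusted p of 0.0515. In this comparison 3.89% of 13446 genes were called higher and 2.25% lower, and 14.9% had every cKO library above every control. Otx2 ranked 89 of 13446 by its difference. Left out in turn, the libraries gave 0.58 (without cKO library 2) to 1.03 (without cKO library 3), and Otx2 stayed called each time.

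Six3os1 stood at 0.439, 0.327 and 0.245 FPKM in control hippocampi and at 0.481, 2.03 and 0.678 FPKM in cKO hippocampi. The high value is that of cKO library 2, and cKO library 1 exceeded the highest control by little. The difference was 0.55 (SE 0.24), called higher at a limma p of 0.0454 with an adjusted p of 0.206. The call was lost without any single control library (p of 0.0598 to 0.109), and without cKO library 2 the mean fell under 0.5 FPKM, so the gene was no longer tested. It passed that filter only through the cKO libraries.

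Six3 was the gene with the lowest level in control hippocampus, at 0.0357, 0.0562 and 0.0363 FPKM, and stood at 0.391, 1.08 and 0.695 FPKM in cKO hippocampi. The groups were far apart relative to the controls' spread. The cKO mean was 16.9 times the control mean, a ratio that rests on control values near 0. Its mean of 0.383 FPKM was below the filter, so it had no test in the main analysis. Fitted with no filter, the difference was 0.70 (SE 0.13), past the thresholds at a limma p of 0.000976 and an adjusted p of 0.0355 over 17868 genes, of which 3.01% were called higher and 12.3% had every cKO library above every control. No other alternative gave Six3 a test in this table. An exact two-sided permutation test of log2(FPKM + 1) gave p = 0.1 for each of the 3 genes, the smallest that 3 against 3 libraries allow.

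**Figure D2:**
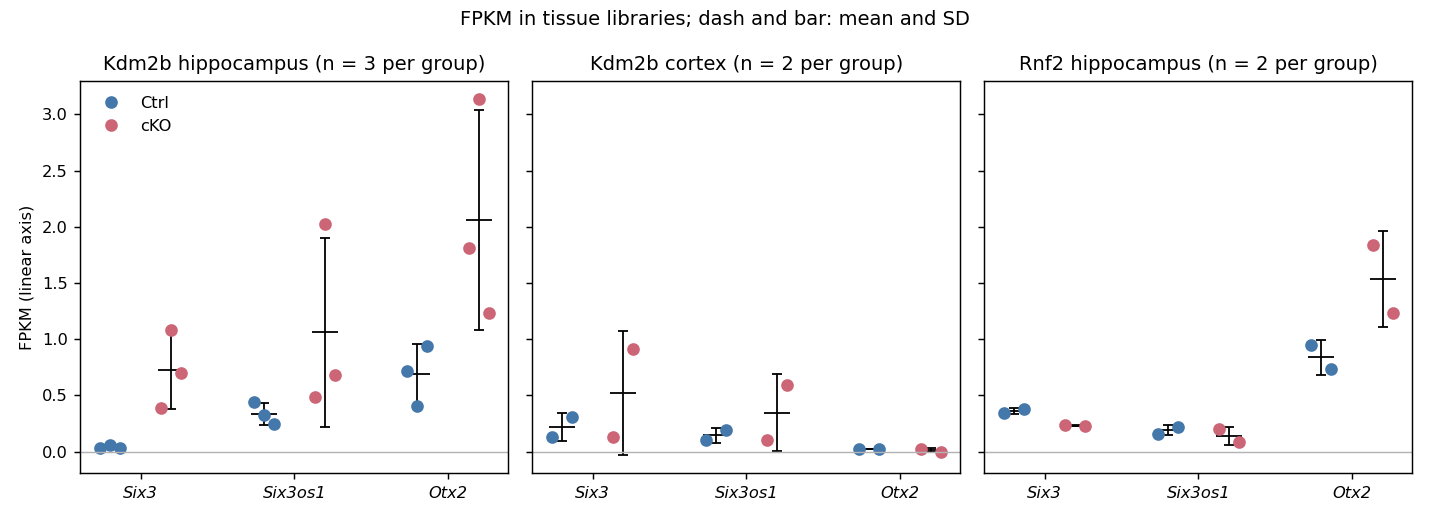
FPKM (linear axis) of the 3 genes in the tissue libraries, with a point per library and the mean ± SD of each group (n = 3 in Kdm2b hippocampus, n = 2 elsewhere). In Kdm2b hippocampus every cKO point lies above every control point of the same gene, and in cortex cKO library 2 alone lies above the controls for Six3, at 0.913 FPKM.

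The proportions among the 3 genes differed between culture and tissue. In cKO neurospheres Otx2 was at 0.392 and 0.545 times the FPKM of Six3, while in cKO hippocampi it was at 4.63, 2.90 and 1.77 times. Six3os1 was at 1.21 and 0.979 times Six3 in cKO neurospheres and at 0.98 to 1.87 times in cKO hippocampi. In control hippocampi Six3os1 stood at 5.81 to 12.3 times Six3. These ratios are of length-corrected levels within a library, and those of controls divide by values near 0.

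**Figure D3:**
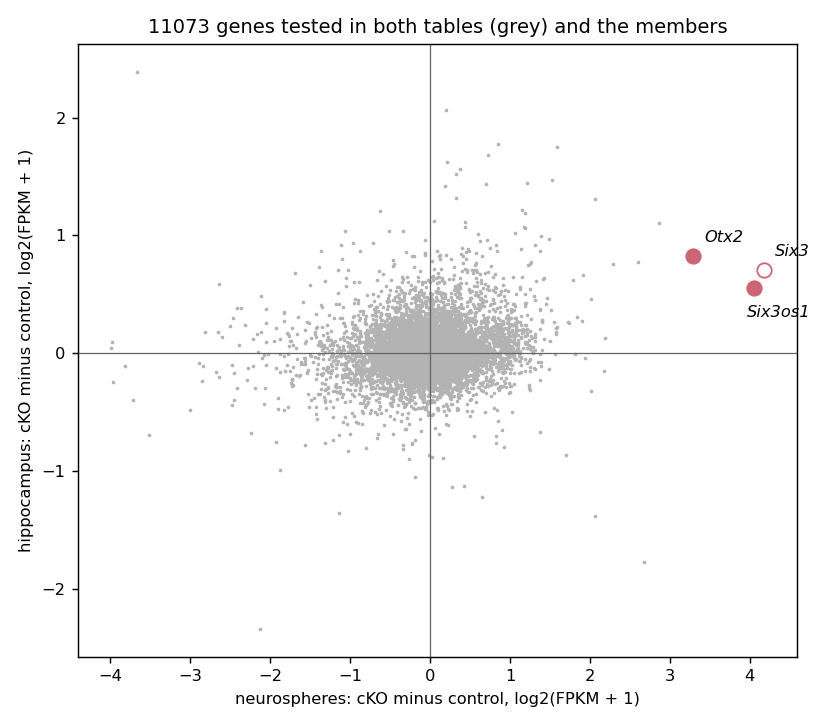
Difference between cKO and control on the log2(FPKM + 1) scale in neurospheres (horizontal) and hippocampus (vertical) for 11073 genes tested in both tables (grey) and for the 3 genes (red, with Six3 open because it was below the filter in hippocampus). The 3 genes lie at the right edge, at 3.29 to 4.17 in neurospheres, and at 0.55 to 0.82 in hippocampus.

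Single markers of other regions ran with these values in some libraries, while others did not. Isl1, a factor of the ventral telencephalon and striatum named after its values were seen, was at 0.0247, 1.02 and 0.401 FPKM in cKO hippocampi and 0, 0 and 0.10 in controls. It thus ran in the same order over the cKO libraries as Six3. Drd2, the dopamine D2 receptor and a marker on the same list, was at 0.370, 0.873 and 0.623 FPKM in controls and 0.473, 0.401 and 0.403 FPKM in cKO hippocampi (difference -0.17, not called). In cKO library 1, where Isl1 was below the highest control, Six3 was at 0.391 FPKM and still above all controls. The 18 genes of the subpallium and striatum list summed to 128.5 to 144.8 FPKM in control and 142.1 to 169.2 FPKM in cKO hippocampi. Of its 15 tested genes 1, Sp8, was called higher, where 3.89% of all genes tested were. The part of these markers in the Six3 values was not tested.

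For Otx2 the neighbouring tissue is the choroid plexus. Ttr, a hallmark transcript of its epithelium, was at 3.96, 3.64 and 14.2 FPKM in control hippocampi and 56.0, 37.9 and 5.29 FPKM in cKO hippocampi. The 11 list genes other than Otx2 summed to 8.84 to 21.4 FPKM in controls and to 62.5, 44.2 and 10.4 FPKM in cKO libraries 1 to 3. Ttr made up this difference. Without it the other 10 summed to 6.52, 5.20 and 7.23 FPKM in controls and 6.44, 6.32 and 5.16 FPKM in cKO libraries, and 7 of the 11 had a lower mean in cKO hippocampi. Of the 5 that were tested, Ttr and Clic6 were called higher, where 3.89% of all genes tested were. Clic6 passed the filter only through the cKO libraries (0.255 against 0.769 FPKM). Folr1 (0.18), Sostdc1 (-0.18) and Calml4 (-0.24) were not called. In cKO library 3, where Ttr and the sum with it lay within the controls' range, Otx2 was at 1.23 FPKM, above the highest control at 0.943. Library 3 was also the lowest of the cKO libraries in both Ttr and Otx2, while Ttr was highest in library 1 and Otx2 in library 2. In the 4 neurosphere libraries the sum was 0.494 to 5.01 FPKM and Folr1 was listed at 0, while Otx2 reached 12.8 FPKM in the library with the lowest sum. The part of choroid plexus in the Otx2 values was not tested.

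**Figure D4:**
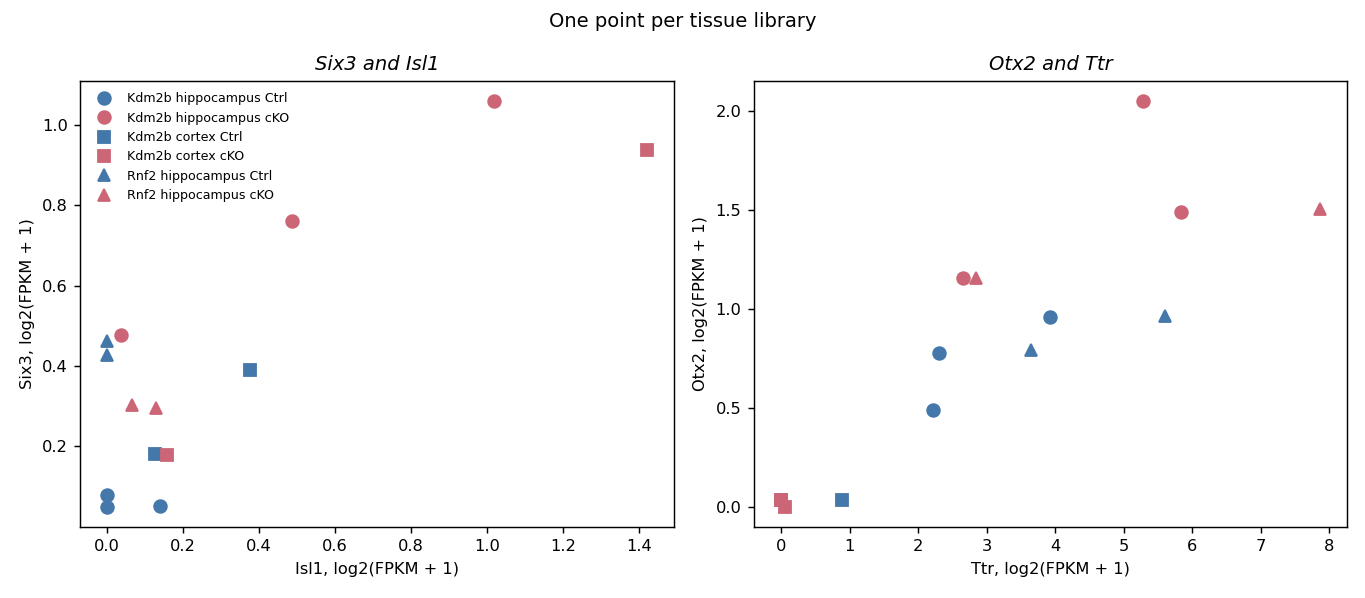
Six3 against Isl1 (left) and Otx2 against Ttr (right), both axes log2(FPKM + 1), with a point per tissue library, shape for the table and colour for the group (blue control, red cKO). The Six3 values of 0.913 and 1.08 FPKM belong to the libraries with Isl1 of 1.67 and 1.02 FPKM, and hippocampus cKO 1, with Isl1 at 0.0247 FPKM, has Six3 at 0.391 FPKM.

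In cortex the 3 genes were all below the filter of 0.5 FPKM and none was tested in the main analysis, where 4.73% of 15691 genes were called higher and 2.28% lower. Six3 stood at 0.133 and 0.311 FPKM in controls and 0.131 and 0.913 FPKM in cKO libraries. Six3os1 stood at 0.0993 and 0.190 FPKM in controls and 0.103 and 0.589 FPKM in cKO libraries. The groups overlapped for both genes, since cKO library 1 was no higher than the highest control and cKO library 2 alone was high. The same library was the highest for Isl1 (1.67 FPKM against 0.0917 to 0.297 in the other 3), Drd2 (1.03 against at most 0.425) and Ebf1 (1.30 against 0.191 to 0.357), of striatal projection neurons. These 3 markers belong to the subpallium and striatum list of 18 genes. It summed to 101.1 and 103.7 FPKM in control cortex and to 94.9 and 122.0 FPKM in cKO libraries 1 and 2. Of its 15 genes tested in cortex, 8 had positive and 7 negative differences, and 1 was called higher. The part of these markers in the Six3 value was not tested.

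In the cortex table the deposited values could be turned back into whole reads. Six3 had 16 and 36 reads in controls and 14 and 93 in cKO libraries, and Six3os1 had 26 and 48 against 24 and 131. On these reads limma-voom gave a log2 fold change of 0.74 for Six3 (95% interval -1.06 to 2.55, limma-voom p of 0.377) and of 0.82 for Six3os1 (-0.79 to 2.44, p of 0.282), and neither passed, where 7.78% of genes were called higher by that fit. Both intervals run from a fall to a clear rise, so neither can be placed with 2 libraries a group. Otx2 had 2 reads in each control, 2 in cKO library 1 and 0 in cKO library 2. A count of 0 allows up to 3 reads, or 0.0380 FPKM in that library, which is above the controls' 0.0215 and 0.0223 FPKM. No cortex library exceeded 0.0241 FPKM of Otx2, while the lowest Kdm2b cKO hippocampus was at 1.23 FPKM, with separate normalisation. Cortex thus showed no Otx2 level like that of cKO hippocampus. A difference among values as low as those of cortex was not detectable at this depth.

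In hippocampus of the Rnf2 mutant neither Six3 nor Six3os1 was higher in both cKO libraries than in both controls, and whether the 2 mutants differ in these genes was not tested. Six3 stood at 0.344 and 0.378 FPKM in controls, with 28 and 32 reads, and at 0.233 and 0.227 FPKM in cKO libraries, with 21 and 20 reads. Both cKO values lay below both controls, as they did for 18.7% of the 15764 genes tested in this table. Six3os1 stood at 0.157 and 0.222 FPKM in controls and 0.199 and 0.0832 FPKM in cKO libraries, and the groups overlapped. Neither gene passed the filter. On recovered reads the log2 fold change was -0.63 for Six3 (95% interval -1.72 to 0.45, limma-voom p of 0.228) and -0.53 for Six3os1 (-1.68 to 0.63, p of 0.342). Control hippocampi of the 2 mutant series stood apart in Six3, at 0.0357 to 0.0562 FPKM in the Kdm2b and 0.344 to 0.378 FPKM in the Rnf2 table, but these tables were made and normalised separately.

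Otx2 stood at 0.950 and 0.731 FPKM in Rnf2 controls, with 60 and 48 reads, and at 1.84 and 1.23 FPKM in Rnf2 cKO hippocampi, with 128 and 84 reads. Both cKO libraries lay above both controls, as for 19.5% of genes tested. The difference was 0.45 (SE 0.21, 95% interval -0.07 to 0.98) and did not pass, at a limma p of 0.0783 and an adjusted p of 0.727, in a comparison where 2.86% of genes were called higher. On recovered reads the log2 fold change was 0.85 (95% interval 0.08 to 1.63) at a limma-voom p of 0.0336, past the thresholds, with an adjusted p of 0.657, and 2.71% of genes were called higher by that fit. Adjusted p over the alternatives with a test ran from 0.508 to 0.999. Choroid plexus genes other than Otx2 summed to 54.0 and 14.4 FPKM in controls and to 250.9 and 8.83 FPKM in cKO libraries 1 and 2, and without Ttr to 6.45 and 2.82 against 18.1 and 2.64 FPKM. In cKO library 2, which had the lowest sum, Otx2 was at 1.23 FPKM and above both controls. Otx2 was higher, at 1.84 FPKM, in cKO library 1, which had the highest sum. The part of choroid plexus in these values was not tested. Whether the Rnf2 and the Kdm2b mutant differ in Otx2 was not tested.

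Across the 8 groups, with levels from separately normalised tables set side by side, all 3 genes were highest in Kdm2b cKO neurospheres and next in Kdm2b cKO hippocampus, and between these 2 groups the ranges did not overlap. For Six3 the order went on with Kdm2b cKO cortex, Rnf2 control and Rnf2 cKO hippocampus, control cortex, control neurospheres and Kdm2b control hippocampus. From the second group on, neighbours in that order overlapped except Rnf2 control and Rnf2 cKO hippocampus. For Otx2 the third and the fourth group were Rnf2 cKO and Rnf2 control hippocampus, followed by Kdm2b control hippocampus, control neurospheres and both cortex groups. Control neurospheres, at 0 to 0.0830 FPKM of Otx2, lay below control hippocampus, at 0.404 to 0.943 FPKM.

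Of the family of Six3, no other gene was called higher in neurospheres. Six6, an eye field factor, was listed at 0 in all 4 neurosphere libraries. Six2, a kidney progenitor factor 74.7 kb from the Six3 start, was listed at 0 in both control neurosphere libraries and at 0.126 and 0.224 FPKM in cKO libraries. In cortex Six2 had 0 and 1 reads in controls and 26 reads in each cKO library, or 0.625 and 0.656 FPKM, and in hippocampus it was at 0 to 0.0346 FPKM in controls and 0.0625 to 0.233 FPKM in cKO libraries. Six4 stood at 1.25 and 1.03 FPKM in control and 0.526 and 0.652 FPKM in cKO neurospheres (difference -0.43, not called). Six5, a member near the myotonic dystrophy kinase gene, stood at 1.40 and 1.33 against 0.625 and 0.85 FPKM (difference -0.45, called lower, as were 13.2% of genes tested), and its difference in hippocampus was 0.06 (SE 0.16), not called.

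Among the Otx genes, Otx1, a factor of dorsal telencephalon and deep-layer cortical neurons, was not alike in the tables. In hippocampus it stood at 6.84, 5.15 and 5.70 FPKM in controls and 10.1, 8.83 and 9.75 FPKM in cKO libraries, and it was called higher with a difference of 0.62 (SE 0.10, limma adjusted p = 0.00949). In neurospheres, where Otx2 was so much higher, Otx1 stood at 8.59 and 8.99 FPKM in controls and 9.48 and 8.63 FPKM in cKO libraries (difference 0.04). In cortex and in Rnf2 hippocampus its differences were 0.00 and 0.14, neither called. Crx, the photoreceptor member, was listed at 0 in all libraries of the 3 Kdm2b tables. Otx2os1 was at 0.236 FPKM in neurosphere cKO library 2 and listed at 0 in the other 3, so it did not accompany Otx2 as Six3os1 accompanied Six3. In hippocampus Otx2os1 was at 0.413, 0 and 0.20 FPKM in controls and listed at 0 in all 3 cKO libraries.

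Genes that work with SIX3 or OTX2, or that these factors or their borders are known to control, were read from a list of 14. In neurospheres 5 of the 10 tested were called higher and 1 lower, where 11.4% of all genes tested were called higher and 13.2% lower. Gmnn, which encodes geminin, a DNA replication inhibitor that binds SIX3, was at 15.1 and 12.6 FPKM in controls and 27.1 and 39.4 FPKM in cKO libraries. Gbx2 and Fgf8, of the midbrain-hindbrain organiser that OTX2 borders, had differences of 0.99 and 0.92, Nr2e1 of 0.66 and the Groucho corepressor Tle3 of 0.68, while Tle4 was lower by a difference of -0.42. These genes were measured in the same libraries as Six3 and Otx2, and a link between them was not tested. Wnt8b, a Wnt gene repressed by SIX3 in the early forebrain, was listed at 0 in all 4 neurosphere libraries. In hippocampus Wnt8b was at 2.44, 1.08 and 2.16 FPKM in controls and 5.76, 5.40 and 4.86 FPKM in cKO libraries and was called higher with a difference of 1.16 (SE 0.18, adjusted p = 0.00674). Wnt8b and Nr2e1 (0.55) were the 2 of 8 tested list genes called there, where 3.89% of all genes tested were called higher. In cortex 1 of 7, Tle2, was called lower, where 2.28% of all genes tested were. In Rnf2 hippocampus 1 of 8, Tle5, was called higher, where 2.86% of all genes tested were.

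Genes of the eye field and retina, where SIX3 and OTX2 act in the embryo, were mostly untested in neurospheres. Of 14 list genes, 4 were listed at 0 in all neurosphere libraries and 3 were tested there. Vax2 was called higher (0.94), having passed the filter only through the cKO libraries, and Mitf was called lower (-0.78), as was an entry that Tbx2 shares with Bcas3 (-0.56) and that cannot be given to either gene. Vax1, a factor of the optic stalk and ventral forebrain just below the filter, was at 0.0535 and 0 FPKM in control and 0.884 and 1.02 FPKM in cKO neurospheres. Rax, the defining factor of the eye field, was at 0.0275 FPKM in control library 1 and listed at 0 in the other 3. None of the 3 list genes tested in hippocampus was called, Vax1 among them (0.36). In Rnf2 hippocampus Vax1 was the 1 of 4 called higher (0.62), where 2.86% of all genes tested were. Of the subpallium and striatum list, 5 of the 8 genes tested in neurospheres were called higher and Gsx1 (-0.59) lower. Since 4 of those 5 passed the filter only through the cKO libraries, their share cannot be read against the 11.4% of all genes. Dlx1 and Dlx2, of GABAergic neuron precursors, went from at most 0.126 FPKM in controls to 2.31 FPKM or more in cKO libraries, while Isl1 was listed at 0 in all 4. Of the midbrain and hindbrain list En2 alone was tested in neurospheres, at 2.17 and 2.22 FPKM in controls and 11.7 and 19.5 FPKM in cKO libraries (difference 2.33, called higher). In the diencephalon list 2 of 5 tested were called higher, Irx2 (1.33) and Gbx2, and 2 lower, Irx1 (-0.55) and an entry that Nkx2-2 shares with its antisense transcript Nkx2-2os (-1.42). Irx2 passed the filter only through the cKO libraries.

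No tested gene next to Six3 or Otx2 other than Six3os1 was called higher. Six2, 74.7 kb from the Six3 start, was below the filter and untested in every comparison. In Rnf2 hippocampus Six2 was listed at 0 in both controls and at 0.0857 and 0.292 FPKM in cKO libraries. Its low values in the Kdm2b libraries, higher in cKO than in control, are given above. Around Six3 fewer than 3 other genes within 500 kb were tested, so the window was widened to 1 Mb on each side. It held 9 other tested genes in neurospheres, with differences of -0.25 to 0.38, and 9 in hippocampus, with differences of -0.32 to 0.10, and none was called in either table, in cortex or in Rnf2 hippocampus. The nearest tested on each side, Camkmt and Srbd1, had 0.05 and 0.05 in neurospheres and -0.24 and -0.04 in hippocampus. Around Otx2, within 500 kb, 6 other genes were tested in neurospheres and Peli2, an ubiquitin ligase of innate immune signalling, was called lower (difference -0.70, SE 0.13). Tmem260, Exoc5, Ap5m1 and Naa30 had differences between -0.33 and 0.23 there, and the pseudogene Gm6498 one of -1.32 (SE 0.59), not called. None of the 5 tested in hippocampus was called (-0.18 to 0.13).

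**Figure D5:**
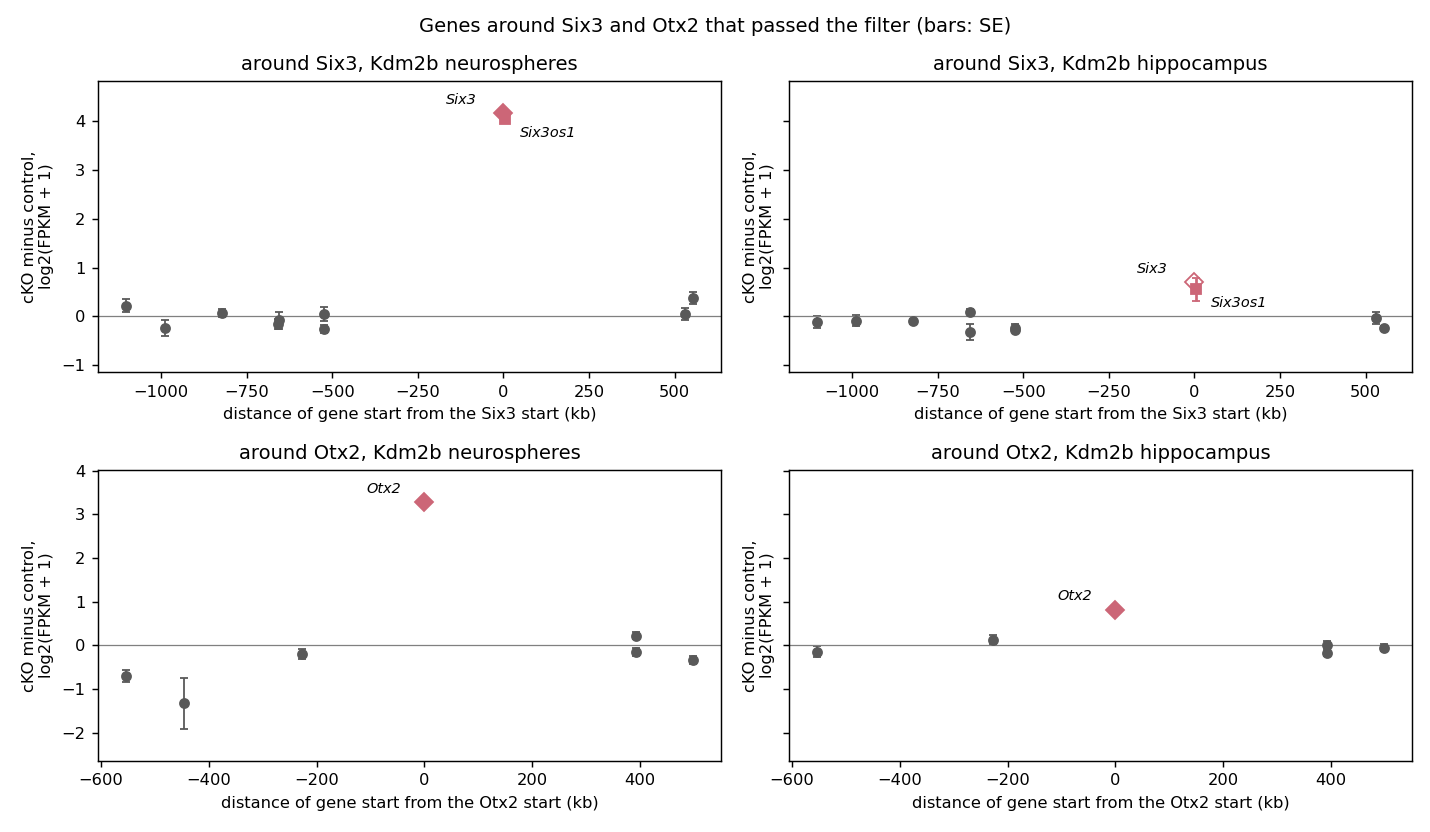
Difference between cKO and control on the log2(FPKM + 1) scale for genes around Six3 (top) and Otx2 (bottom) in neurospheres (left) and hippocampus (right), against the distance of their start sites in kb, with bars for SE. Six3, Six3os1 and Otx2 (red, Six3 open where below the filter) stand above tested neighbours that lie between -1.32 and 0.38.

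The genes whose values ran most like Six3 and Otx2 were found by Pearson's r over 18 libraries of log2(FPKM + 1) less the control mean of the same table, among 12661 genes. The r is set mostly by the 2 cKO neurosphere libraries and is a description. Six3os1 was closest to Six3 (r = 0.993), and then came Uhrf1 (0.977), a reader of hemimethylated DNA, Nup85 (0.973), a nuclear pore subunit, and Exo1 (0.970), a DNA exonuclease. In the 14 tissue libraries alone, r with Six3 was 0.906 for Six3os1 and 0.424 to 0.731 for those 3 genes. Closest to Otx2 were Cnpy1 (0.985), a gene of FGF signalling at the midbrain-hindbrain boundary in fish, Atp10a (0.98), a phospholipid flippase, and Nup85 (0.958), with Six3os1 and Six3 at ranks 7 and 8. Cnpy1 was at 2.05 and 1.85 FPKM in control and 18.5 and 30.2 FPKM in cKO neurospheres. In hippocampus it was at 0.116, 0.0745 and 0.289 FPKM in controls and 0.513, 0.926 and 0.666 FPKM in cKO libraries, in the same order over the cKO libraries as Six3. In tissue alone r between Six3 and Otx2 was 0.594.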

How the data were processed

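RNA was isolated from 18 P0 samples, and libraries were made with the NEBNext Ultra II RNA kit. Per the study's methods and the submitters' processing notes, reads were trimmed with cutadapt, aligned to mm10 (GRCm38) with STAR and expressed as FPKM with Cufflinks 2.2.1. The authors deposited FPKM per gene in 4 tables, which differ in annotation and were normalised separately. Whether counting used strand is not given in the sources used here. DESeq2 was run by the authors on read counts that were not used here, and no comparison columns were used.

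Where a name, comma-joined names included, had several entries, that of the highest mean stood for it, and unnamed entries were left out. Each table was fitted by itself on log2(FPKM + 1) with limma 3.58.1 (lmFit, eBayes with a trend, R 4.3.3) over named genes whose mean reached 0.5 FPKM, with Benjamini-Hochberg adjustment over all genes tested. Scripts were tested on simulated data. Reads were recovered in the cortex and Rnf2 tables by multiplying FPKM by gene length and dividing by the value of 1 read, where 100.0% of values came out whole within 0.05. These libraries held 14654894 to 21905224 reads, and the depth of the others is unknown. Limma-voom with TMM scaling was run on these reads for genes with a mean of at least 10, a minimum chosen after seeing the data.

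Genes were named by rule: the 3 genes, Kdm2b, Rnf2, the families of Six3 and Otx2, ranks 4 to 6 in neurospheres, neighbours within 500 kb (1 Mb where fewer than 3 others were tested), called genes of the marker lists (at most 6 per list) and the 3 genes most alike. The members and lists were chosen with earlier results of these data known. Sequences are from RefSeq (GRCm38.p6), where all 3 genes matched. Alternatives were another pseudocount, other filters, scalings and thresholds, a replicate block, recovered reads and each library left out. Results for a few genes of these lists are not reported here.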

Additional observations from a re-analysis of the deposited data

Results flagged for a closer look

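Six4 and Six5, relatives of Six3, had differences of opposite sign in neurospheres and in some tissue of the Kdm2b mutant, of which Six5 in neurospheres alone was called. The difference of Six4 (cKO minus control, log2(FPKM + 1)) was -0.427 in neurospheres, where it was not called. It was 0.160 in hippocampus and 0.113 in cortex, at levels under 0.5 FPKM and with no test. The difference of Six5 was -0.447 in neurospheres, where 13.2% of all genes tested were called lower, and 0.257 in cortex, not called (SE 0.10). In hippocampus it was 0.0635 (SE 0.16), and the groups overlapped. Whether these differences differ between culture and tissue was not tested, since the tables were normalised separately.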

How the results depend on the processing

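No result changed direction under any alternative that kept all libraries. With a pseudocount of 0.1 the differences became 2.44 for Six3 in hippocampus, 6.51, 5.90 and 6.10 for Six3, Six3os1 and Otx2 in neurospheres, 0.64 for Six3os1 and -0.13 for Otx2 in cortex, and -0.48 and -0.30 for Six3 and Six3os1 in Rnf2 hippocampus. On recovered reads they were 0.74 and 0.82 for Six3 and Six3os1 in cortex and -0.63 and -0.53 in Rnf2 hippocampus. The Six3os1 call in hippocampus, 0.55, was lost with no filter (limma p of 0.0582), with no trend (0.0590) and at an adjusted p of 0.206. Its difference ranged from 0.50 to 0.76 over the 5 libraries whose omission left it tested. The range leaves out the omission of cKO library 2, the highest at 2.03 FPKM, without which the gene fell under the filter. The Otx2 call there, 0.82, was lost only at the adjusted p of 0.0515, which ranged from 0.0239 to 0.137 over the alternatives. Otx2 in Rnf2 hippocampus passed without a trend (0.45, limma p of 0.0476) and on recovered reads (0.85, limma-voom p of 0.0336). Without cortex cKO library 2 the differences of Six3 and Six3os1 turned to -0.11 and -0.05, without Rnf2 cKO library 2 that of Six3os1 to 0.01, and without cortex cKO library 2 that of Otx2 to 0.003.

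Counts over all genes moved as follows. With no fold threshold, 1537 genes were higher and 1553 lower in hippocampus, 2230 and 2439 in neurospheres, 1212 and 801 in cortex, and 692 higher in Rnf2 hippocampus. At an adjusted p under 0.05 limma called 198 lower in hippocampus, 58 higher and 9 lower in cortex, and 0 higher and 0 lower in Rnf2 hippocampus, where 451 and 291 passed unadjusted and limma-voom called 442 higher. Recovered reads gave 1307 higher in cortex. The same FPKM total for each library gave 830 lower in neurospheres in place of 1620, and moved the median of all genes there from -0.01 to 0.09. With single libraries left out, cortex had 677 to 1226 higher, and Rnf2 hippocampus 278 to 808 higher and 190 to 772 lower.

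Replicate numbers are shared by control and cKO libraries, but no label ties them to a litter. Same-numbered hippocampi correlated at 0.05, -0.10 and -0.09 in their deviations, so the numbers were not taken as pairs. With a replicate block the limma p was 0.0104 for Otx2 and 0.0367 for Six3os1 in hippocampus and 0.0575 for Otx2 in Rnf2 hippocampus, with no call changed, and 437 genes in place of 291 were lower in Rnf2 hippocampus. Read depth is known for cortex and Rnf2 libraries only, 2 libraries a group allow no exact test under p = 0.333, and values near 0.05 FPKM rest on few reads.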

Other observations

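The lists of cell types and regions describe the setting of the 3 genes in culture and tissue. Over all genes tested in neurospheres, 11.4% were called higher and 13.2% lower. There 8 of 10 glial genes were called lower, among them Gja1, a connexin of astrocytes (-3.97), Gpr17, of oligodendrocyte precursors (-3.99), and Gfap (-2.05), and none higher. Of 11 neural progenitor genes 5 were called higher, among them Nes (0.89) and Mki67 (1.04), and 3 lower, Hes5 (-0.94), Hes1 (-0.89) and Sox9 (-0.60). Of the other lists, dorsal pallium had 1 of 8 tested higher (Emx1, 1.19) and 1 lower (Emx2, -0.47), hippocampus 2 of 5 higher (Ociad2 and Nrp2) and 1 lower (an entry of Zbtb20 and Mir568), and cortical hem 2 of 3 higher (Msx1 and Bmp7). Emx1 passed the filter only through the cKO libraries. Polycomb had 3 of 22 higher and 3 lower, near the shares of all genes.

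In Kdm2b cKO hippocampus, where Six3 and Otx2 were at low levels, 3.89% of all genes tested were called higher and 2.25% lower. There 8 of 11 tested genes of the cortical hem, the Wnt and Bmp source at the edge of the hippocampus, were called higher and none lower, with a list median of 0.62 against 0.01 over all genes. Of those 8, 1 passed the filter only through the cKO libraries. Wnt8b (1.16), Rspo1 (1.12), Bmp7 (0.76) and Wnt3a (0.71) were the highest. Of 11 progenitor genes 7 were called higher, and of 11 dorsal pallium genes 4, among them Neurog2 (1.42) and Eomes (1.16), of intermediate progenitors. Glial genes had 2 of 10 lower (Aqp4 and S100b), neocortex 1 of 9 lower (Bcl11b), hippocampus 1 of 8 higher and diencephalon 1 of 4 higher (Lhx9 in both), and Polycomb 3 of 22 higher, led by an entry of Bcor, a partner of KDM2B, and 2900008C10Rik (1.44). The 1 midbrain and hindbrain gene tested was not called. In cortex Bmp7 (1.89), Bmp6 (1.54) and Msx1 (1.00) were the 3 of 6 hem genes called higher, where 4.73% of all genes were. Since 2 of those 3 passed the filter only through the cKO libraries, their share cannot be read against that of all genes. In Rnf2 hippocampus none of 10 hem genes was called.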
